A study of Mus musculus with 15 samples.

Results

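The transcripts described here encode 8 proteins that osteoblasts and osteocytes lay down in, or make at the surface of, bone matrix besides collagen: *Ibsp*, *Spp1*, *Dmp1*, *Mepe*, *Sparc*, *Bglap*, *Bglap2* and *Ifitm5*. They were taken by name from a table of 54232 genes, and all 8 were found and passed the filter on low counts. The table came from bulk RNA sequencing of secondary palates that the labels give as wild type (WT), and the labels name no transgene, deletion or treatment for any group. The 5 groups, of 3 libraries each, are the birth stage (P0) and 4 embryonic stages at steps of 1 day, the youngest being embryonic day 13.5 (E13.5) and the oldest E16.5. Each library came from the palates of 3 embryos pooled before extraction, so errors describe pools rather than single animals, and whether the pools of a stage came from separate litters is not given in the sources used here. Libraries held 21470759 to 69019565 counts, and those of E16.5 and P0, at 21470759 to 52258321, were shallower than the rest. Levels are in CPM (counts-per-million, with library totals adjusted by the TMM factor), and 3 counts, taken as the detection floor, stood for 0.0435 to 0.140 CPM by unadjusted totals, which covers counting error only. All 3 pools of E16.5 held at most 0.166 CPM of each of 4 Y-linked genes, whereas the highest pool of every other stage had at least 13.9 CPM of each, so at E16.5 stage and sex of the pools cannot be told apart. In whole tissue, fewer cells of a type and less RNA per cell cannot be told apart either.

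Bone matrix is collagen filled with mineral, and the proteins encoded here sit in it at low abundance and bind calcium, collagen or cell surfaces. Bone sialoprotein (*Ibsp*), osteopontin (*Spp1*), dentin matrix protein (*Dmp1*) and matrix extracellular phosphoglycoprotein (*Mepe*) belong to the SIBLING family of secreted acidic phosphoproteins, whose genes stand in a row on 1 chromosome. Osteonectin (*Sparc*) is a collagen-binding protein made by many connective tissue cells, osteocalcin (*Bglap*, *Bglap2*) is a small vitamin K-dependent protein of mature osteoblasts, and *Ifitm5* encodes a membrane protein of osteoblasts that is mutated in a human brittle bone disease. In the palate, bone forms directly within the mesenchyme of the shelves, without a cartilage model.

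The osteocalcin sequences come before the values because they limit what their counts can tell. Read from the GENCODE M21 transcripts, the coding sequences of *Bglap* (GRCm38 chr3:88383501-88384464, minus strand) and *Bglap2* (chr3:88377736-88378699, minus strand) have 288 bases each and differ at 4 of them, which are in capitals below, so 98.6% of bases are identical.
*Bglap*: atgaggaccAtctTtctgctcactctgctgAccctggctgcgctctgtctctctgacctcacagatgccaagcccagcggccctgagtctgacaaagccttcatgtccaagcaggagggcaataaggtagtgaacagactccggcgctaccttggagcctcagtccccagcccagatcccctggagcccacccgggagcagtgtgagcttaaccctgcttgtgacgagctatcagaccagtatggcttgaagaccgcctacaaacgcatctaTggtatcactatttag
*Bglap2*: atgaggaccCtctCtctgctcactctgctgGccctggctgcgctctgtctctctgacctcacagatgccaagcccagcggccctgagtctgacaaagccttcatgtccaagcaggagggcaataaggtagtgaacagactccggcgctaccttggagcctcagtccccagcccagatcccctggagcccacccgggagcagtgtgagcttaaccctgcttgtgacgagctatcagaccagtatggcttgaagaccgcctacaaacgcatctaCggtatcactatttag
The longest stretch without a difference is 241 bases. Of all 100-base windows of the transcripts, 38.7% in *Bglap* and 57% in *Bglap2* also occur in another osteocalcin gene, and a fragment lying wholly in such a window could not be placed. The third copy, *Bglap3*, differs from *Bglap* at 13 of 288 coding bases. The values of these genes are therefore uncertain against each other, and their sum was fitted as well. Neighbouring annotation also takes fragments from 2 other genes: *Gm42793* covers 309 of the 1648 exonic bases of *Spp1* (18.8%) on the same strand, and *Gm45717* covers 227 of 765 in *Ifitm5* (29.7%), and the recorded counting command left fragments that overlap several genes uncounted. The other 4 genes share no 100-base window with another gene.

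Windows of 250 bases before the gene start were read from the RefSeq promoter table (GRCm38.p6), which held 7 of the 8 genes and not *Bglap2*. By the GENCODE gene models the *Sparc* window lies wholly inside the gene and the *Ibsp* and *Ifitm5* windows partly. RefSeq places these starts further downstream, so none of these windows is the stretch before the GENCODE start. The *Dmp1* window reaches 4 bases into its gene. They were searched on both strands for short sequences known from bone promoters. The core that Runx factors bind, ACCACA, was in 4 of the 7 windows (*Spp1*, *Dmp1*, *Mepe*, *Bglap*) and in 14% of all 32851 windows of that length. The TATA box, TATAAA, was in 4 (*Ibsp*, *Spp1*, *Mepe*, *Bglap*; 12.4% of all), the CCAAT box, CCAAT, in 5 (the 4 SIBLING members and *Bglap*; 33.8%), the homeodomain core TAATTA in *Mepe* alone (4.84%), the E-box, CANNTG, in all 7 (66.2%) and the AP-1 site TGANTCA in none (6.75%). The windows with the Runx core are printed because 3 of these 4 genes had the lowest E15.5 levels relative to P0 described below, together with *Bglap2*. This choice was made from the levels and does not single out the Runx core. The same 3 genes hold TATAAA, as does *Ibsp*, which stood at 91.5% of its P0 mean at E15.5. *Dmp1*, with the Runx core, stood at 38.4%, and *Bglap2* had no window. Capitals mark ACCACA and TATAAA or their reverse complements, TGTGGT and TTTATA.
*Spp1* (chr5:104434861-104435110, plus strand): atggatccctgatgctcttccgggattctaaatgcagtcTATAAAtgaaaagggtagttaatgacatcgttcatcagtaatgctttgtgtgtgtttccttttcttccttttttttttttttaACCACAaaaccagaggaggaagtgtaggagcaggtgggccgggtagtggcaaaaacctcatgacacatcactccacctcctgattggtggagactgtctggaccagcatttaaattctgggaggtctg
*Dmp1* (chr5:104202367-104202616, plus strand): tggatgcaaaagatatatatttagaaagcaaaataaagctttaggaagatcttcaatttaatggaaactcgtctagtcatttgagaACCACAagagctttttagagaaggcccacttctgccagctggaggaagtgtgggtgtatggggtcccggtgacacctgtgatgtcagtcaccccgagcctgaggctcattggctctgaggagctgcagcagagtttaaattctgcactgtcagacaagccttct
*Mepe* (chr5:104325079-104325328, plus strand): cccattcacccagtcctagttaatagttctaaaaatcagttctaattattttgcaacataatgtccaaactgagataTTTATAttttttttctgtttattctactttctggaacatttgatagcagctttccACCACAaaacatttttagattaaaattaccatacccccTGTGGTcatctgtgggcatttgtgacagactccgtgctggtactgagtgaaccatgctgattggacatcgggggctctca
*Bglap* (chr3:88384467-88384716, minus strand): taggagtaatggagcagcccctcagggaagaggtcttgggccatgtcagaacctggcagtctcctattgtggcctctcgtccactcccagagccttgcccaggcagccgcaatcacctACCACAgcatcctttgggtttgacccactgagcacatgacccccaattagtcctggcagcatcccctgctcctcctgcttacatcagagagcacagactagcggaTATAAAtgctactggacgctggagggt
*Bglap* carries TATAAA 27 to 22 bases before its start, where a TATA box usually lies. *Ibsp* carries it reversed at 28 to 23 bases before the RefSeq start, shown in 30 bases (chr5:104299237-104299266, plus strand), which the GENCODE gene model, starting 116 bases further upstream, places inside the gene.
*Ibsp*: gctgttgagaggcggagaagggTTTATAgt
In the 4 SIBLING members CCAAT stood in reverse, as ATTGG, between 57 and 17 bases before the RefSeq start. *Spp1* and *Dmp1* share TTTAAATTCTG, at 20 to 10 and 31 to 21 bases before their starts, which 5 of the 32851 windows hold. They also share GGAGGAAGTGT further upstream, which 35 hold. *Ibsp* and *Dmp1* share AGAAGGCCCAC (6 windows), and *Spp1* and *Mepe* share ACCACAAAAC (12 windows). All of these runs were picked out after the windows were compared. These matches describe letters only and were not tested against the counts.

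The earliest question was whether any of the 8 transcripts was higher at E14.5 than at E13.5. None passed edgeR's quasi-likelihood test, where 0.00903% of all 22151 genes tested were called higher and 0% lower. *Mepe* and *Ibsp* were higher at an unadjusted p under 0.05, as were 10.3% of all genes. *Ibsp* had 7.64, 4.47 and 28.6 CPM at E13.5 and 69.7, 43.8 and 88.6 CPM at E14.5. The groups did not overlap, the E13.5 pool with the highest value stood apart from the others, and the log2 fold change was 2.31 (standard error, SE, 0.60; adjusted p 0.133), or 3.48 without that pool (adjusted p 0.165). The same E13.5 pool was also highest for *Sp7*, the transcription factor that commits cells to the osteoblast fate, at 32.0 CPM against 17.7 and 14.1, and for 5 of the 6 transcripts above the detection floor at that stage. *Mepe* had no count in any E13.5 library and 4, 6 and 7 counts at E14.5, a mean of at least 1.94-fold the floor of 3 counts per library (adjusted p 0.105). *Dmp1* was low and even, with 0.573, 0.592 and 0.520 CPM and then 1.03, 0.999 and 0.941 CPM, again without overlap (log2 fold change 0.81, SE 0.38; adjusted p 0.320). *Bglap* was lower in all 3 E14.5 libraries (2, 5 and 3 counts) than at E13.5 (7, 8 and 9 counts), and this difference did not pass the test either (adjusted p 0.510). *Bglap2* had 0, 2 and 2 counts and then none, and both stages lie under the floor. *Spp1*, *Sparc* and *Ifitm5* overlapped between the stages, with log2 fold changes of 0.41, 0.20 and 0.99. DESeq2, tried as an alternative, called *Ibsp* (adjusted p 0.00486) and *Mepe* (adjusted p 0.0102) higher at E14.5, and edgeR with the replicate number as a block called *Ibsp* (adjusted p 0.0410).

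**Figure D1:**
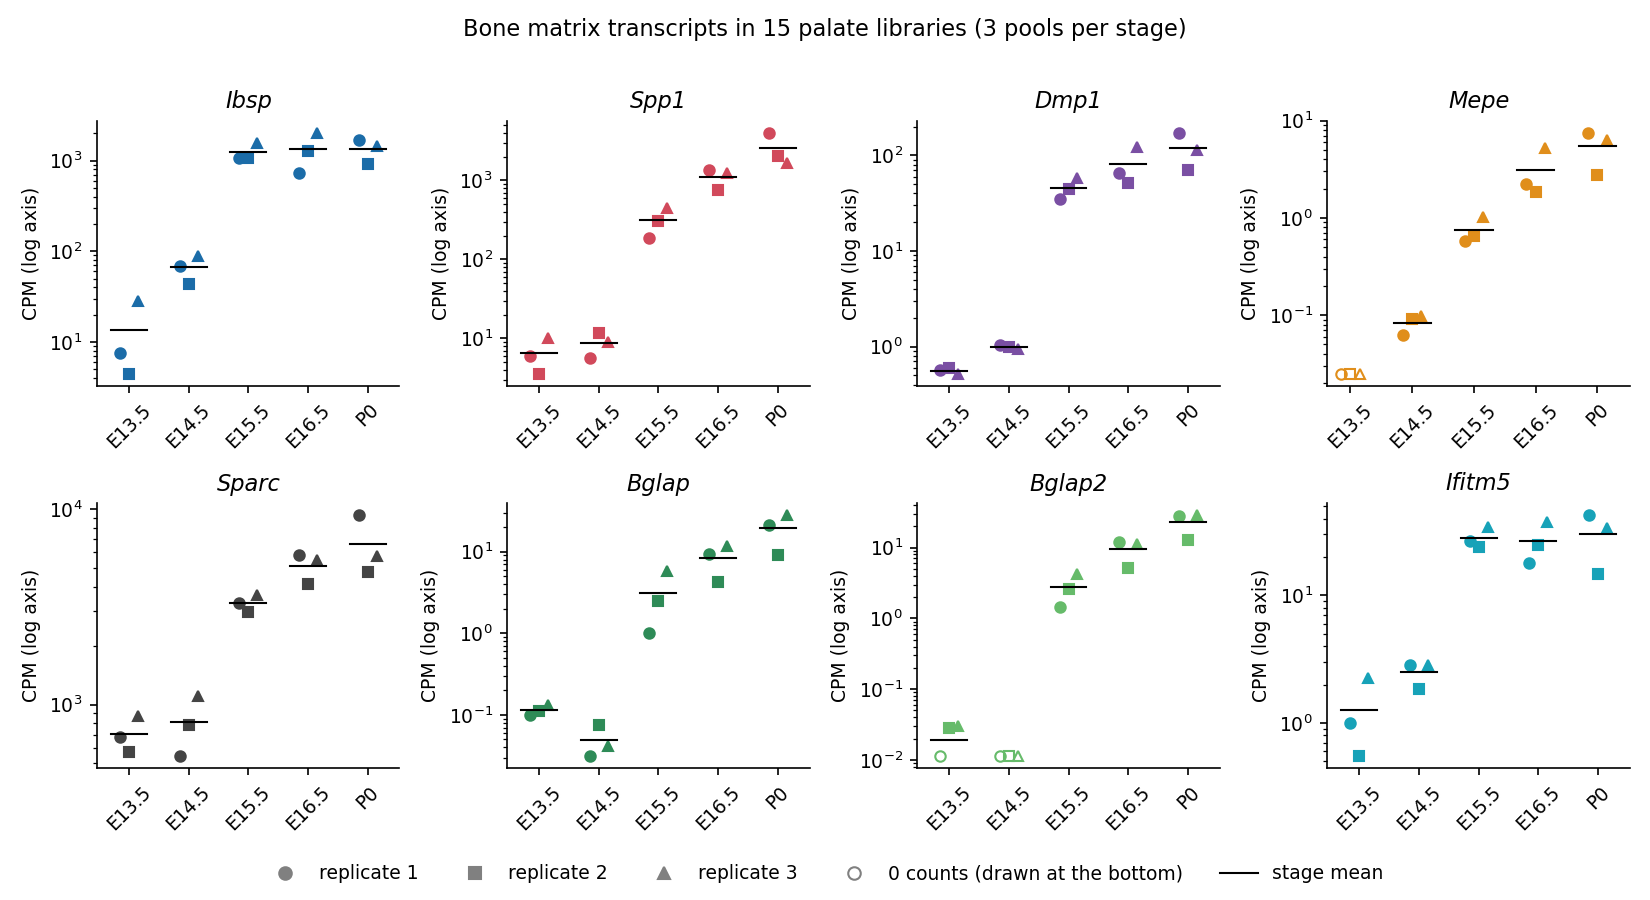
CPM on a log axis for each of the 8 transcripts in 3 libraries at each of 5 stages, with a bar at the stage mean and open symbols for libraries with 0 counts. *Ibsp* and *Ifitm5* level off after E15.5, whereas the stage means of the other 6 go on upward to P0.

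All 8 transcripts rose at E15.5. Each was called higher than at E14.5 by edgeR's quasi-likelihood test, where 12.7% of all genes were called higher and 13.4% lower. Each was also called higher than at E13.5, where 13.7% of all genes were called higher and 9.18% lower. For each of the 8, the E15.5 libraries lay above all earlier libraries, as they did for 17.2% of all genes. Their median log2 fold change from E14.5 was 4.67, with *Bglap2* at its lower bound or not, against 0.03 over all genes tested. The contrasts with E14.5 and E13.5 share the E15.5 libraries.

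Among the SIBLING genes, *Ibsp*, whose acidic product nucleates mineral, went from the E14.5 values above to 1072, 1067 and 1566 CPM, an 18.3-fold change in the fit (log2 fold change 4.20, SE 0.65; adjusted p 0.00147). *Spp1*, an integrin-binding protein that also inhibits crystal growth, went from 5.67, 11.8 and 8.99 CPM to 185, 308 and 446 CPM, which is 35.4-fold (log2 5.15, SE 0.54; adjusted p 0.000205). *Dmp1*, a phosphoprotein of young osteocytes, reached 35.2, 44.1 and 58.1 CPM, which is 46.2-fold (log2 5.53, SE 0.41; adjusted p 5.1e-05). Its replicates at the earlier stage were the closest together of the 8, and this rise had the smallest p of the 8. *Mepe*, an osteocyte protein whose cleaved peptide restrains mineralization, reached only 34, 44 and 71 counts, or 0.573, 0.656 and 1.03 CPM, and rose 8.74-fold (log2 3.13, SE 0.55; adjusted p 0.00385). All 3 values lie above every earlier library, but *Mepe* remained the least abundant of the 8.

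*Sparc* was abundant from the start, as 679, 568 and 873 CPM at E13.5 and 544, 782 and 1104 CPM at E14.5 show. At E15.5 it had 3309, 2985 and 3644 CPM, the smallest rise of the 8 at 4.09-fold (log2 2.03, SE 0.30; adjusted p 0.00116). *Bglap* reached 60, 167 and 401 counts, or 1.01, 2.49 and 5.80 CPM, spread more widely than any other of the 8 at this stage, and rose 59.8-fold (log2 5.90, SE 0.76; adjusted p 0.000611). *Bglap2* reached 86, 174 and 289 counts, or 1.45, 2.59 and 4.18 CPM, at least 61.2-fold above the floor of E14.5 (adjusted p 0.000284). Counted together with *Bglap3*, the osteocalcin genes rose by 6.52 on the log2 scale (adjusted p 0.000187). *Ifitm5*, which was at 2.83, 1.85 and 2.86 CPM, reached 26.5, 24.1 and 34.4 CPM, which is 11.3-fold (log2 3.49, SE 0.52; adjusted p 0.00121).

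**Figure D2:**
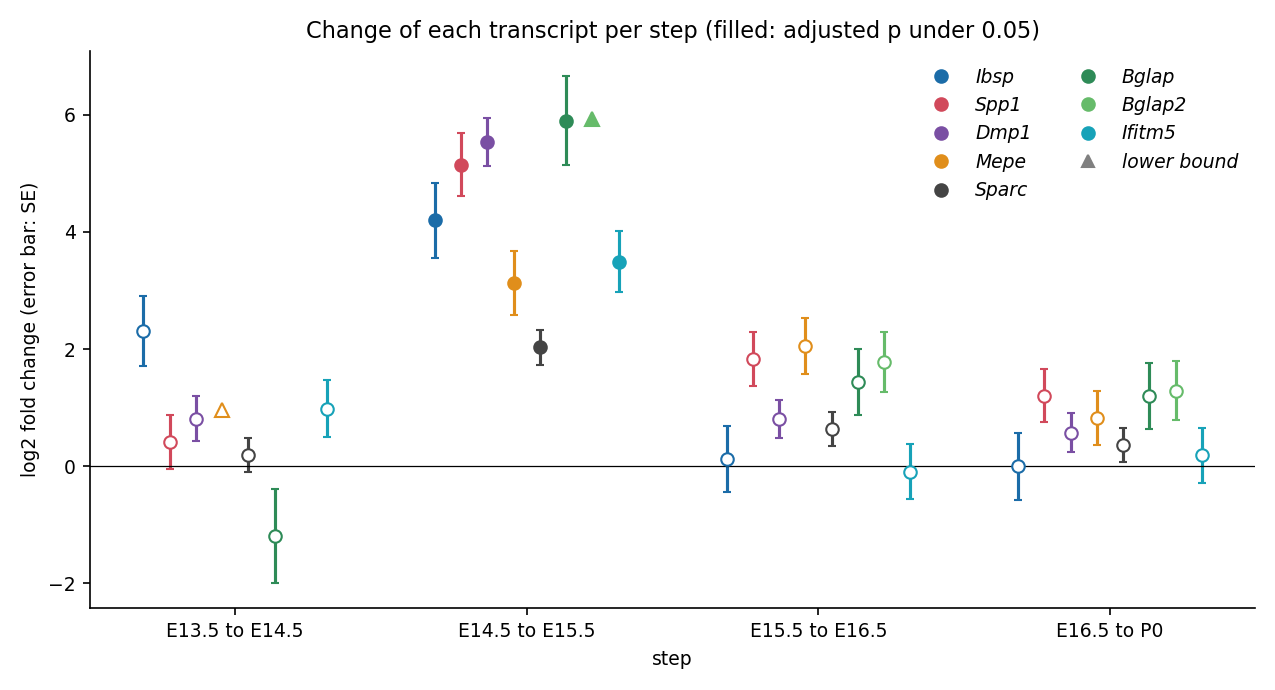
Log2 fold change of each transcript between consecutive stages with its SE, filled where the adjusted p was under 0.05, with triangles for lower bounds against a stage without counts and *Bglap2* left out of the E13.5 to E14.5 step, where both stages lie under the floor. The symbols of E14.5 to E15.5 are all filled, from 2.03 for *Sparc* upward, and none is filled in the other steps.

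Ordered by the stage of the earliest called rise against E13.5, the 8 transcripts tied at E15.5. Within the tie, the fitted log2 fold changes against E13.5 gave the order *Mepe* (8.37), *Bglap2* (7.0), *Ibsp* (6.51, SE 0.72), *Dmp1* (6.34, SE 0.43), *Spp1* (5.56, SE 0.55), *Bglap* (4.72, SE 0.69), *Ifitm5* (4.48, SE 0.54) and *Sparc* (2.23, SE 0.30). The places at the head are not settled, because *Mepe* had no count at E13.5, so that its rise is at least 17.4-fold, and *Bglap2* had 4 counts over 3 libraries, which gives a ratio of 146 with a 95% exact counting interval of 56.7 to 538. Neighbours in this order were not tested against each other. By the looser description that all 3 libraries lie above all 3 of E13.5, *Ibsp*, *Dmp1* and *Mepe* came at E14.5 and the other 5 at E15.5. Of all genes, 15.5% met this description at E14.5 and 23.7% at E15.5. DESeq2 moved *Ibsp* and *Mepe* to E14.5, and the replicate block moved *Ibsp*.

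The later stages stayed far above E13.5. At E16.5 and at P0 all 8 were called higher than at E13.5, and none lower. Among all genes 25.2% were called higher and 23.0% lower at E16.5, and 29.8% higher and 26.8% lower at P0, and these comparisons share the E13.5 libraries. At P0 the fold changes against E13.5 were 99.6 for *Ibsp*, 387 for *Spp1*, 211 for *Dmp1*, 165 for *Bglap*, 23.9 for *Ifitm5* and 9.36 for *Sparc*, with at least 128-fold for *Mepe*. *Bglap2* stood at 1181 times its E13.5 level, with a counting interval of 460 to 4337. The median log2 fold change of the 8 at P0 was 7.54, or 7.18 with *Mepe* and *Bglap2* at their bounds, against 0.03 over all genes. All 8 changed over the 5 stages by the F test over all stages, as 59.1% of all genes did. Together they took 0.0599% to 0.0967% of all counts at E13.5 and 0.686% to 1.34% at P0. *Sparc* made up 95.4% to 98.4% of these counts at E13.5 and 60.9% to 63.4% at P0.

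After E15.5 the 8 transcripts differed in how near they stood to their P0 level. No step from E15.5 to E16.5 passed the test, where 1.03% of all genes were called higher and 0.379% lower, although 6 of the 8 were higher at an unadjusted p under 0.05, against 12.2% of all genes, namely *Spp1*, *Mepe*, *Bglap2*, *Bglap*, *Dmp1* and *Sparc*. None passed from E16.5 to P0 either, where 0.190% of all genes were called higher and 0.163% lower, with *Spp1* and *Bglap2* higher at an unadjusted p under 0.05, against 5.64% of all genes. All libraries lay above those of the stage before for *Spp1*, *Mepe*, *Sparc* and *Bglap2* at E16.5 (15.7% of all genes) and for *Spp1* and *Bglap2* at P0 (6.23%). By DESeq2, *Spp1*, *Mepe* and *Bglap2* were called higher at E16.5 than at E15.5 (adjusted p 0.00297, 0.00246 and 0.00851), and none at P0 over E16.5. In relative terms *Ibsp* at E15.5 stood at 91.5% of its P0 mean and *Ifitm5* at 93.5%. *Sparc* stood at 50.1%, *Dmp1* at 38.4%, *Bglap* at 16%, *Mepe* at 13.6%, *Spp1* at 12.2% and *Bglap2* at 11.9%.

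**Figure D3:**
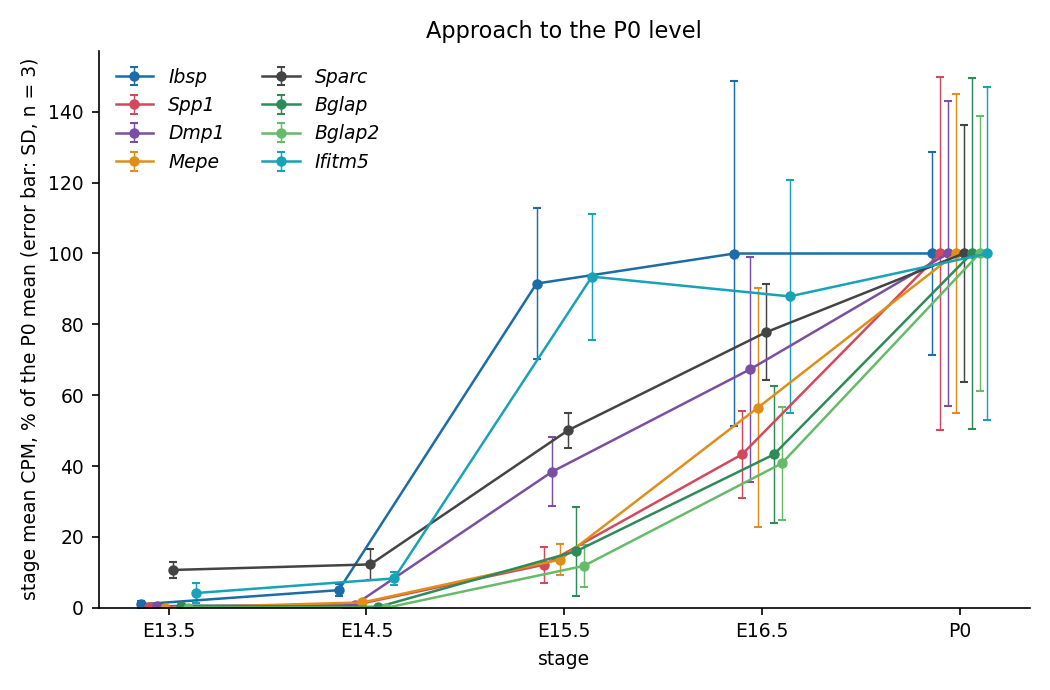
Mean CPM of each stage as a percentage of the P0 mean of the same transcript, with the SD of 3 libraries. *Ibsp* (91.5%) and *Ifitm5* (93.5%) are near their P0 mean by E15.5, while *Spp1*, *Mepe*, *Bglap* and *Bglap2* are between 11.9% and 16%.

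The values by library underlie these means, so they are no separate evidence of a division between *Ibsp* with *Ifitm5* and the rest. *Sparc* and *Dmp1* stood between the extremes. *Ibsp* had 730, 1282 and 2037 CPM at E16.5 and 1679, 923 and 1446 CPM at P0, around its E15.5 values (log2 fold change 0.13, SE 0.57, from E15.5 to E16.5). *Ifitm5* likewise had 17.8, 24.6 and 37.5 CPM and then 42.6, 14.7 and 33.7 CPM. Both were spread widely, and a change of the size of their SE would not have been detected. *Spp1* had 1338, 751 and 1251 CPM at E16.5 and 4030, 2010 and 1666 CPM at P0, with no overlap between neighbouring stages. *Bglap2* also went up without overlap, with 11.8, 5.20 and 11.2 CPM at E16.5 and 27.9, 12.7 and 28.7 CPM at P0. The same was true of *Mepe* from E15.5 to E16.5, at 2.24, 1.85 and 5.26 CPM, but its P0 values of 7.54, 2.74 and 6.27 CPM overlapped with these. *Bglap* had 9.26, 4.29 and 11.7 CPM and then 21.1, 9.09 and 28.1 CPM, overlapping at both steps. *Dmp1* had 65.8, 51.6 and 123 CPM and then 173, 70.6 and 114 CPM, and *Sparc* 5808, 4127 and 5485 CPM and then 9313, 4757 and 5761 CPM, both with overlap between E16.5 and P0.

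The division was examined further with ratios, which compare 2 transcripts within a library and need no scaling between libraries. The same libraries had shown the division, so these ratios are no independent test of it. The later group joins E16.5 and P0, so its spread also holds any change between them. For *Spp1* to *Ibsp* the mean log2 ratio was -0.20 at E16.5 and 0.86 at P0. For each transcript the log2 ratio of its counts to those of *Ibsp* or of *Sp7* was compared between the 3 libraries of E15.5 and the 6 of E16.5 and P0, by an exact two-sided permutation test with Benjamini-Hochberg adjustment over the 15 ratios. The smallest p this design allows is 0.0238. After adjustment it became 0.0325 here, a value that depends on how many of the 15 ratios reached it. The 8 ratios to *Sp7* were among these and share 1 denominator, so they are not separate results. The ratios to *Ibsp* were not adjusted on their own. Relative to *Ibsp*, *Spp1* increased from -2.05 ± 0.42 (SD, n = 3) to 0.33 ± 0.90 (SD, n = 6), a difference of 2.38 or 5.19-fold, at the smallest p possible. *Mepe* increased by 2.29 (4.89-fold) and *Bglap2* by 2.40 (5.26-fold), both likewise at the smallest p possible and higher in all 6 later libraries than in any E15.5 library. *Bglap* moved by 2.18 (exact permutation, adjusted p 0.0549), *Dmp1* by 0.96 (exact permutation, adjusted p 0.0549) and *Sparc* by 0.71 (exact permutation, adjusted p 0.0765), with overlap between the groups. The ratio of *Ifitm5* to *Ibsp* differed by -0.15, from -5.44 ± 0.09 (SD, n = 3) to -5.59 ± 0.27 (SD, n = 6; exact permutation, adjusted p 0.429). Earlier stages were outside this comparison, and the ratios were not steady there. The mean log2 ratio to *Ibsp* was -3.19 at E13.5 and -4.71 at E14.5 for *Ifitm5*. For *Spp1* it was -0.71 and -2.93. Relative to *Sp7*, all 8 ratios increased without overlap at the smallest p possible, by 0.48 for *Ifitm5*, 0.62 for *Ibsp*, 1.34 for *Sparc*, 1.58 for *Dmp1* and 2.80 to 3.02 for *Bglap*, *Mepe*, *Spp1* and *Bglap2*. *Sp7* itself went from 131 ± 23.2 CPM at E15.5 to 108 ± 53.4 at E16.5 and 83.3 ± 31.6 at P0 (SD, n = 3), neither step passing the test in edgeR. With E16.5 or P0 alone as the later group, or with 2 E15.5 libraries, the design cannot reach 0.05. 

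**Figure D4:**
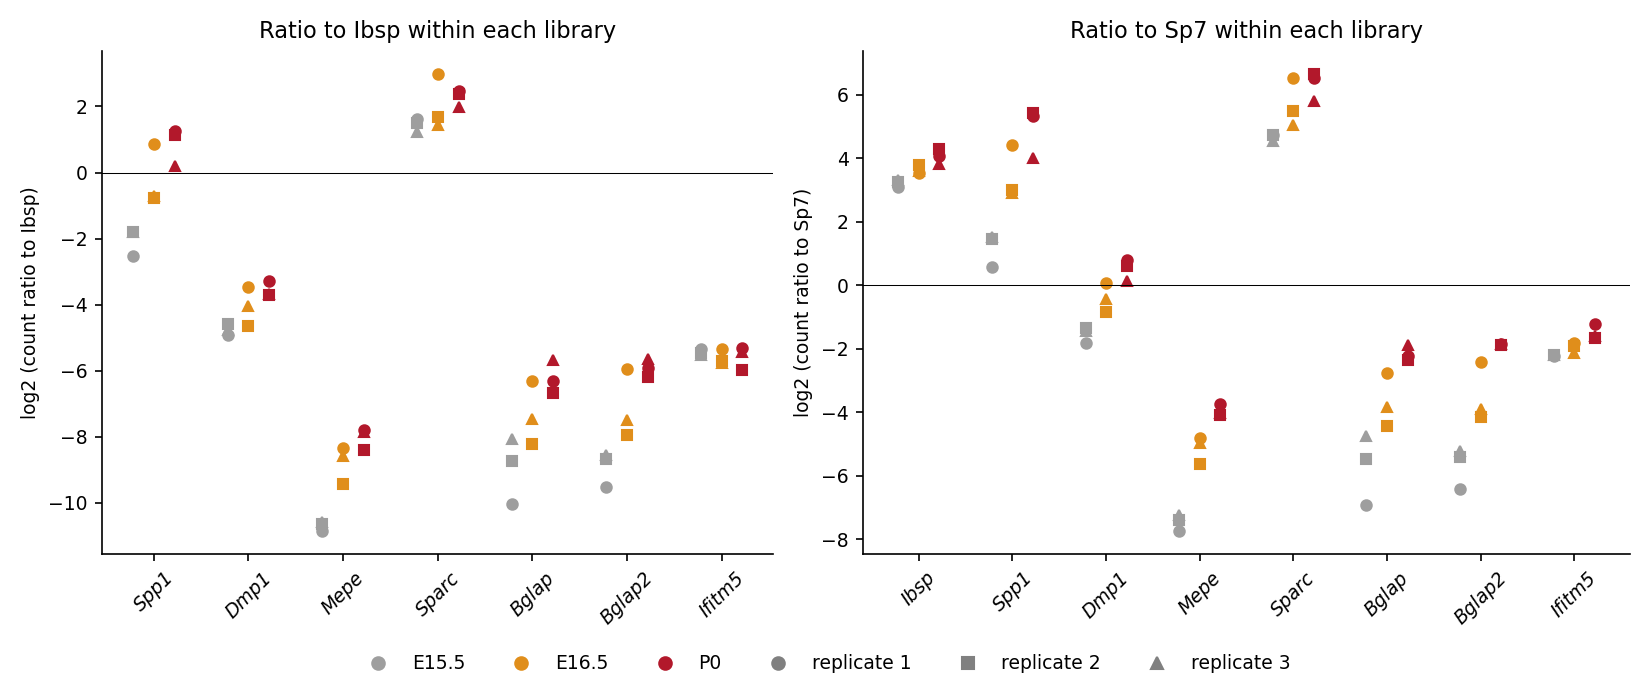
Log2 ratio of each transcript's counts to those of *Ibsp* (left) and of *Sp7* (right) in each library of E15.5, E16.5 and P0, with colours for stages and symbols for replicate numbers. *Spp1*, *Mepe* and *Bglap2* lie higher in all 6 later libraries than in any E15.5 library on both sides, whereas *Ifitm5* overlaps on the left.

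Levels of different genes can be compared only per length, so FPKM (CPM per kilobase of exon) was used for this. At E13.5 *Sparc* led with 187 ± 40.7 FPKM, followed by *Ibsp* (6.56 ± 6.33) and *Spp1* (4.03 ± 2.06), which do not differ beyond their spread. At E15.5 the order was *Sparc* (875 ± 87.1), *Ibsp* (597 ± 139), *Spp1* (190 ± 79.2), *Ifitm5* (37.1 ± 7.05), *Dmp1* (16.6 ± 4.18), *Bglap2* (5.82 ± 2.91), *Bglap* (5.02 ± 3.97) and *Mepe* (0.447 ± 0.144; all SD, n = 3). Of neighbours in that order only the osteocalcin genes overlap within 1 SD. At P0 *Sparc* (1745 ± 632) and *Spp1* (1559 ± 775) led with overlapping spreads, and *Ibsp* (653 ± 187) came next, with each of its libraries below each of *Spp1*. *Bglap2* (49.1 ± 19.1), *Dmp1* (43.1 ± 18.6), *Ifitm5* (39.6 ± 18.6) and *Bglap* (31.4 ± 15.5) followed with overlapping spreads, and *Mepe* (3.28 ± 1.48) stayed last. *Spp1* thus passed *Ibsp* in stage mean between E15.5 and P0, and the osteocalcin genes went from 6th and 7th place into that middle range. The lengths used were 618 bases for *Bglap* and 471 for *Bglap2*, so equal counts give a lower FPKM for *Bglap*. *Bglap* gave 41.1% to 58.1% of the counts of *Bglap* and *Bglap2* in the 9 libraries from E15.5 on.

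Within a stage the same pools were often highest or lowest for most of the 8. At E15.5 the pool of replicate 3 was highest for all 8, at E16.5 replicate 2 was lowest for 6 and at P0 replicate 2 was lowest for 7. That P0 pool also had the highest mitochondrial share of counts of the series, at 2.83% against at most 1.95% elsewhere. Its part in these values was not tested. The coefficient of variation between pools at P0 was 28.7% for *Ibsp*, 36.2% for *Sparc* and 38.9% to 49.7% for the other 6, against 23.2%, 9.95% and 19% to 79.1% at E15.5. Over the 15 libraries the log2 CPM of *Bglap* and *Bglap2* had a Pearson r of 0.993, and those of *Ibsp* and *Ifitm5* 0.989. The lowest value among the 28 pairs was 0.860, between *Ibsp* and *Bglap*. These correlations share the stage means and the libraries and are given as descriptions only.

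The genes whose log2 CPM over the 15 libraries was most like each transcript were looked up among 13038 genes that reached 10 CPM. For *Ibsp* these were *Sgms2* (Pearson r 0.993), a sphingomyelin synthase, *Slc13a5* (0.990), a citrate transporter, and *Clec11a* (0.983), a growth factor made in bone. For *Ifitm5* they were *Slc13a5* (0.993), *Alpl* (0.989), the alkaline phosphatase of mineralizing cells, and *Sgms2* (0.985). The pair thus shared 2 of its 3 nearest genes. Other members shared nearest genes as well, such as *Tagln2* for *Spp1* and *Sparc*. All these correlations share the stage means and differ little between ranks, so they are descriptions only. *Spp1* was nearest to *Tagln2* (0.993), *Agt* (0.991) and *Galnt6* (0.991), and *Sparc* to *Mxra8* (0.995), *Tagln2* (0.994) and *Srpx2* (0.992). *Bglap2* was nearest to *Ccdc153* (0.986), *Srpx2* (0.984) and *Galnt6* (0.984), and *Bglap* to *Podnl1* (0.983), *Vdr* (0.982), the vitamin D receptor, and *Mmp23* (0.980). *Dmp1* was nearest to *Col22a1* (0.989), *Ndufa4l2* (0.988) and *Ccdc153* (0.984). *Mepe* was nearest to *Aldh3b1* (0.985), *Csf1r* (0.983), the receptor that macrophages and osteoclasts depend on, and *Atp6v0d2* (0.982), a proton pump subunit of osteoclasts.

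Genes around these transcripts were read from lists chosen by role. The counts in this and the following paragraphs stand beside the shares of all genes tested. From E14.5 to E15.5 these were 12.7% higher and 13.4% lower. From E15.5 to E16.5 they were 1.03% and 0.379%, and from E13.5 to P0 29.8% and 26.8%. Of 8 osteoblast transcription factors 1 rose from E14.5 to E15.5, *Sp7* from 31.1 ± 3.83 to 131 ± 23.2 CPM (SD, n = 3; edgeR adjusted p 0.00412). *Runx2*, the factor upstream of *Sp7*, had 33.4 ± 7.33 and 71.4 ± 9.73 CPM at these stages (adjusted p 0.0555), and the median log2 fold change of the list was 1.09. Of 10 genes of bone collagen and its processing 7 rose at this step (median 1.10), among them *Col1a1* (log2 fold change 3.18), *Col1a2* (2.49) and *Serpinh1* (0.85), the collagen chaperone, and none passed the test at the next. *Col1a1* at E15.5 stood at 68.2% of its P0 mean, between *Ibsp* and *Sparc*.

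Enzymes that modify the matrix proteins rose in 5 of 8 cases from E14.5 to E15.5 (median 1.15). *Phex*, which cleaves SIBLING-derived peptides, rose by 2.35 on the log2 scale and *Vkorc1*, which recycles the vitamin K used to carboxylate osteocalcin, by 1.27. *Fam20c*, the kinase that phosphorylates SIBLING proteins, was at 72.7 CPM and then 38.1 CPM (adjusted p 0.0709), and *Ggcx*, the carboxylase itself, rose by 0.65. *Tgm2*, a cross-linking enzyme, had a log2 fold change of 0.99 (adjusted p 0.130). Of 7 mineralization enzymes and transporters 4 rose, including *Alpl* (log2 2.42) and *Phospho1* (3.11), and *Smpd3* (0.62) and *Slc20a2* (0.33) did not pass. Of 9 tested of 10 cell surface partners 3 rose at this step, namely *Cd44* (1.51), *Itgb3* (1.26), both receptors of osteopontin, and *Cd9* (1.01), while *Itgb1* (0.47), *Itgb5* (0.61) and *Cd81* (0.33) did not pass. *Itgb3* and *Cd9* rose again from E15.5 to E16.5 (1.39 and 0.94).

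Relatives of the 8 differed among themselves. Of 11 tested, 4 rose from E14.5 to E15.5 (median 0.70), namely *Bglap3*, *Mgp*, *Ifitm1* and *Ifitm3*. *Mgp*, a vitamin K-dependent inhibitor of calcification related to osteocalcin, went from 24.2 to 81.6 CPM (log2 1.76) and was at 202 CPM at P0. *Sparcl1*, the nearest relative of *Sparc*, was at 210 and 208 CPM at these stages and rose at the following step (log2 1.06; adjusted p 0.0353). *Spock2* and *Smoc2* did not pass at any step from E14.5 on. *Dspp*, the SIBLING gene of dentine, had 0 to 11 counts per library, with at most 0.277 CPM, and was not tested.

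Markers of other cells moved over the same stages. Of 9 osteoclast markers 7 rose from E14.5 to E15.5 (median 2.51), 5 rose again from E15.5 to E16.5 (median 2.35) and none passed from E16.5 to P0. Their summed level was 62.1 to 89.8 CPM at E13.5, 80.3 to 112 at E14.5, 189 to 460 at E15.5, 1262 to 2228 at E16.5 and 2268 to 4408 at P0, led by *Ctsk*, *Mmp9* and *Acp5*, the proteases and phosphatase of bone resorption. This sum was highest in replicate 3 at E15.5 and E16.5 and in replicate 1 at P0. *Spp1* was highest in the same pools at E15.5 and P0, as were most of the 8, but at E16.5 it was highest in replicate 1. Of 9 macrophage markers 6 rose at E15.5, and their sum went from 119 to 157 CPM at E14.5 to 230 to 244 CPM at E15.5 and 346 to 493 CPM at P0. Of 5 osteocyte markers 3 rose at E15.5, *Phex*, *Cd44* and *Sost*, an inhibitor of Wnt signalling made by osteocytes, and *Sost* fell from 3.87 CPM at E16.5 to 1.00 CPM at P0 (log2 fold change -1.94; adjusted p 0.0484). Osteoclasts and macrophages can make osteopontin too, and the part of these cells in the values of *Spp1* and *Mepe* was not tested.

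Skeletal muscle markers were prominent at the later stages. Of 8, 6 rose at E15.5 (median 2.52), and their sum was 233 to 435 CPM at E13.5, 1953 to 5346 at E15.5, 14132 to 42673 at E16.5 and 6762 to 40335 at P0. At P0 the pool lowest for 7 of the 8 bone matrix transcripts, replicate 2, had the highest muscle sum, and at E16.5 the pool with the highest muscle sum, replicate 1, was lowest for *Ibsp* and *Ifitm5* but highest for *Spp1*, *Sparc* and *Bglap2*. The part of muscle RNA in these values was not tested, and the ratios within libraries are free of it only as far as muscle makes neither transcript. Of 6 oral epithelium markers 1 rose at E15.5, and their sum went from 234 to 541 CPM at E13.5 to 972 to 3122 CPM at P0. Of 6 endothelial markers none passed at E15.5 and 3 were higher at P0 than at E13.5. Of 8 palate mesenchyme markers, which check the labelled tissue and summed to 310 to 522 CPM at E13.5 and 166 to 264 CPM at P0, 4 were lower at P0 than at E13.5, including *Shox2* and *Tbx22*, and *Barx1*, *Msx1*, *Pax9* and *Meox2* did not pass.

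Teeth and cartilage also make some of these proteins. Tooth markers summed to 0.845 to 2.05 CPM at E13.5 and 4.24 to 22 CPM at P0, and the dentine gene *Dspp* stayed at or below 0.277 CPM, against 70.6 to 173 CPM of *Dmp1* at P0. Of the 5 tested, 1 rose and 1 fell from E14.5 to E15.5. At P0, 4 of the 5 were higher than at E13.5 and 0 lower (median log2 fold change 5.09). Cartilage markers summed to 1418 to 3980 CPM at E13.5 and 1076 to 2770 CPM at P0, and of 10, 1 rose at E15.5, *Col10a1*, the collagen of hypertrophic cartilage, which rose from 0.252 to 3.24 CPM and had 50.7 CPM at P0. *Col2a1*, the main cartilage collagen, had 1289 CPM at E14.5 and 797 CPM at E15.5 (adjusted p 0.535). The part of teeth and cartilage in the values of the bone matrix transcripts was not tested.

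**Figure D5:**
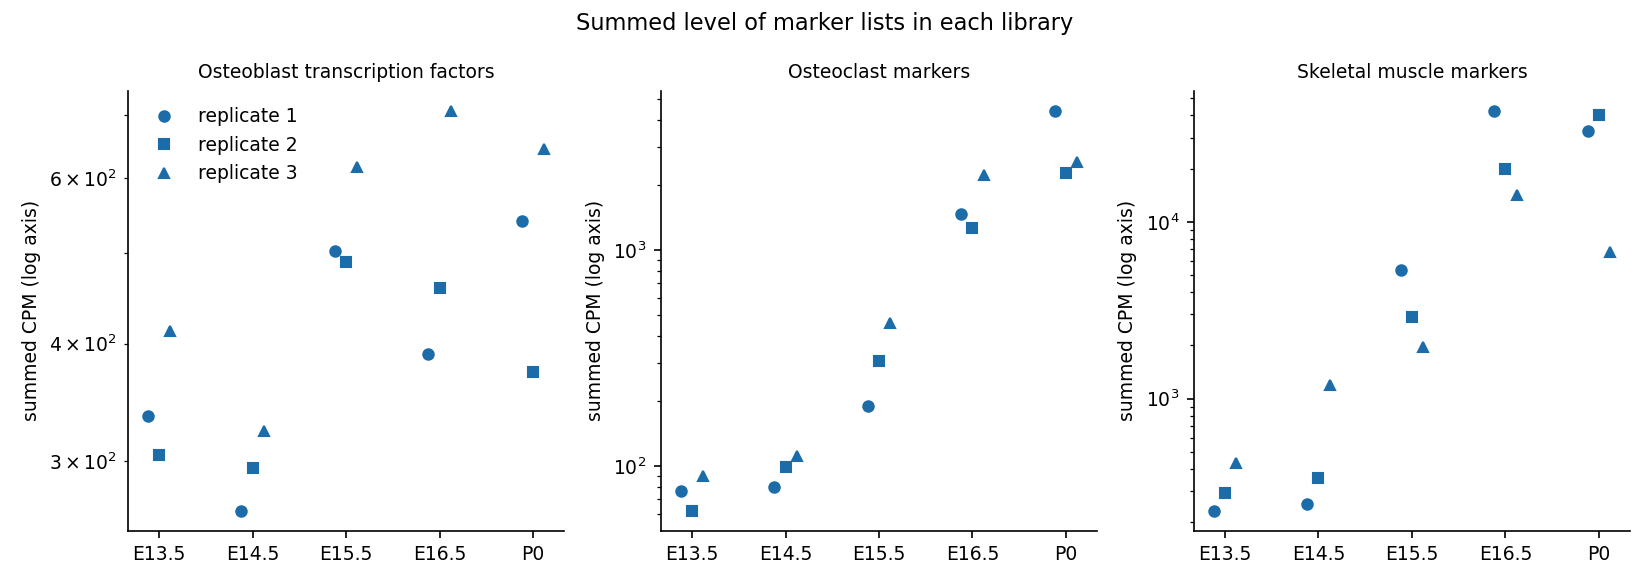
Summed CPM on log axes of osteoblast transcription factors, osteoclast markers and skeletal muscle markers in each library, with symbols for replicate numbers. The osteoclast sum goes from 62.1 to 89.8 CPM at E13.5 to 2268 to 4408 CPM at P0, and the muscle sum spans 6762 to 40335 CPM between the P0 pools.

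The genes lying within 200 kb were compared to see whether the rises were shared along the chromosome. The 4 SIBLING members occupy 238 kb of chromosome 5 (GRCm38), in the order *Dmp1* (104202613 to 104214102), *Ibsp* (104299171 to 104311469), *Mepe* (104325329 to 104338611) and *Spp1* (104435118 to 104441050), all on the plus strand. Around them, 9 other genes were tested. From E14.5 to E15.5, 2 rose, *Hsd17b11* and *Gm42793*, which overlaps *Spp1*, and none fell. From E13.5 to P0, 4 rose and 3 fell, with a median log2 fold change of 0.18, and *Pkd2*, which starts 18400 bases beyond *Spp1*, fell by 0.79 on the log2 scale. Of 25 tested genes around the osteocalcin genes, 5 rose and 6 fell from E14.5 to E15.5 (median from E13.5 to P0, 0.04). Around *Ifitm5* (chromosome 7, 140948958 to 140950291) 7 of 22 rose and 3 fell at that step, and around *Sparc* (chromosome 11, 55394500 to 55423183) none of 5 rose and 1 fell. Of all genes tested, 12.7% rose and 13.4% fell from E14.5 to E15.5. From E13.5 to P0, 29.8% rose and 26.8% fell.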

How the data were processed

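The deposited file holds whole-number fragment counts per gene for 15 libraries. The authors made these counts with featureCounts 2.0.1 (read pairs, reverse strand, GENCODE M18), per the file headers, from reads aligned to mm10; HISAT2 2.2.1, Bowtie2, cutadapt 3.4 and SAMtools 1.12 are named in the submitters' processing notes without their roles. Reads that fit several genes were not counted, which can lower *Bglap* and *Bglap2*.

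The counts of all 15 libraries were fitted with edgeR 4.0.16 (R 4.3.3; TMM scaling, filterByExpr with a minimum count of 10, quasi-likelihood F test, 1 coefficient per stage), and p-values were Benjamini-Hochberg adjusted over 22151 genes with a threshold of 0.05. The common biological coefficient of variation was 0.332. The pipeline was tested on simulated data. Ratios had 0.5 added to each count. CPM and FPKM were computed here, FPKM with the table's gene lengths. P-values of the fit measure the spread between pools. In the ratio tests the later group also holds any change from E16.5 to P0.

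Members and lists were chosen with earlier results of these data known. Lists covered osteoblast transcription factors, bone collagen, relatives, modifying enzymes, surface partners, mineralization, and markers of osteocytes, osteoclasts, macrophages, cartilage, tooth, endothelium, skeletal muscle, oral epithelium and palate mesenchyme, and sex-linked genes. Named were all 8 members, up to 3 most abundant genes per list, 3 most alike genes per member and neighbours within 200 kb; other list genes were named after their values were seen. Alternatives were DESeq2 1.42.0, other scalings and filters, summed osteocalcin genes, a replicate block, fewer libraries and other ratio settings.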

Additional observations from a re-analysis of the deposited data

How the results depend on the processing

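All 8 transcripts were called higher under every alternative run in the comparisons of E15.5, E16.5 and P0 with E13.5 and of E15.5 with E14.5, and all 8 changed over the stages under every alternative run. Where the osteocalcin genes were summed, the fit of the sum stood for both *Bglap* and *Bglap2*. Fold changes that were not called changed sign in places: *Sparc* from E13.5 to E14.5 (lowest log2 value -0.09), *Ibsp* (lowest -0.30) and *Ifitm5* (highest 0.12) from E15.5 to E16.5, and *Ibsp* (lowest -0.31) and *Ifitm5* (lowest -0.14) from E16.5 to P0. From E13.5 to E14.5 DESeq2 called 2 members higher and the replicate block 1 (*Ibsp*, adjusted p 0.0410), against 0 in the other settings run. From E15.5 to E16.5 DESeq2 called 3 and the replicate block 1 (*Mepe*, adjusted p 0.0453), against 0 in the others. DESeq2 also called more of all genes, with 672 higher and 328 lower at the first of these steps. The cause was not tested. The rise was earliest at E15.5 for 6 members under DESeq2 and for 7 under the block. Same-numbered libraries showed no clear pairing. Of 30 pairs, 9 had a correlation of deviations above 0.1 (range -0.303 to 0.548). The mean was 0.0594, against -0.0321 for pairs of other numbers. In all, 7 of 15 libraries correlated best with their own number. These values do not settle whether the numbers pair the libraries. Of the 15 ratios, 11 passed, 0 with E16.5 alone or P0 alone as the later group (smallest possible p 0.1) and 0 to 13 with 1 library left out. The 0 came from leaving out any E15.5 library, where the smallest possible p is 0.0714. For E15.5 against E14.5, upper-quartile scaling shifted the all-gene median from 0.03 to 0.16 (log2), and the split of calls from 2803 higher and 2970 lower to 3424 and 2007. The alternatives for the count over all stages and for the stage of the earliest rise were chosen after seeing the data. Depth limits *Mepe* and the osteocalcin genes before E15.5, at 0 to 9 counts per library.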
